A study of Homo sapiens with 6 samples.

Results

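The genes of cholesterol synthesis, uptake and SREBP2 control were followed in MDA-MB-231 breast cancer cells depleted of CRP2. The set held 32 genes, taken by symbol from a table of 58395 genes: 6 genes of SREBP2 and the proteins that hold, escort and cleave it, 8 of the mevalonate arm, 3 that lead through squalene to lanosterol, 8 that lead on to cholesterol, and 7 of sterol transport, esterification, efflux and receptor turnover. All 32 were among the 23806 genes with enough counts to be tested. The members were listed by their place in the pathway, with earlier results of these data known.

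RNA was sequenced from 3 libraries of cells that received a CRP2-targeting siRNA (siCRP2) and 3 of cells that received a siRNA with no target (siCTR). The labels give harvest at 65 h after transfection, and the study's methods give a slightly later time. MDA-MB-231 is a human line from a mammary adenocarcinoma, and both groups were grown in the same complete medium at normal oxygen. A single siRNA against CRP2 and a single cell line were sequenced, so an effect of CRP2 loss and an effect particular to that siRNA cannot be told apart. The study describes the 3 libraries of a group as biological replicates, and the labels do not say how the cultures were separated.

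Cells make cholesterol from acetyl-CoA. The mevalonate arm builds isoprenoid units up to farnesyl diphosphate, which also feeds protein prenylation, and farnesyl diphosphate is then joined into squalene, closed into lanosterol and trimmed to cholesterol. SREBP2, the product of SREBF2, is the main transcription factor of these genes. It waits in the endoplasmic reticulum bound to SCAP, is held there by INSIG proteins when sterols are plentiful, and is otherwise carried to the Golgi, where site-1 and site-2 proteases release its active part. In breast cancer cells as in others, cholesterol serves membrane growth, and excess is stored as esters or exported.

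Totals were 18346442 to 39115778 counts in siCRP2 libraries and 17336798 to 25321830 in siCTR libraries. Levels are in CPM, the usual scaling of counts to a common library total, here after correction by trimmed mean of M-values (TMM) factors. They are relative to all RNA of a library, and bulk RNA cannot tell less transcript in every cell from fewer cells that carry it. Each column name carries 1 of 3 codes, called a, b and c here, and 1 library of either group has each code. The 3 values of a group are given in the order a, b, c. CSRP2, which encodes CRP2, stood at 2.17, 1.78 and 1.89 CPM in siCRP2 libraries, against 13.7, 11.7 and 11.4 CPM in siCTR libraries (log2 fold change -2.66, SE 0.178, edgeR adjusted p = 2.4e-08). Keratin 8 (KRT8, 990 to 1023 CPM in siCRP2 libraries and 923 to 1171 in siCTR libraries) and vimentin (VIM, 1357 to 1937 CPM and 1430 to 2262 CPM) were both abundant, and the 5 epithelial markers checked summed to 1985 to 2144 CPM and 1991 to 2490 CPM. Of these markers CDH1, E-cadherin, was higher, at 33.2 ± 5.59 CPM in siCRP2 libraries and 17.4 ± 3.39 CPM in siCTR libraries (SD, n = 3 each, log2 fold change 0.94, edgeR adjusted p = 6.5e-04). The other epithelial markers did not pass: KRT8 (log2 difference -0.03), KRT18 (-0.04), KRT19 (-0.20) and EPCAM (-0.36). KRT19 and EPCAM were lower in each code, and passed as lower with the code as a block (edgeR adjusted p = 0.0052 and 1.3e-04). The epithelial markers thus did not move in a common direction. The mesenchymal marker FN1, fibronectin, averaged 1473 ± 327 CPM in siCRP2 libraries and 2328 ± 735 CPM in siCTR libraries (SD, n = 3 each) and did not pass (log2 difference -0.66, edgeR adjusted p = 0.25), but it was lower in each code and passed with the code as a block (edgeR adjusted p = 5.8e-21). Very small p-values of the fit with the block rest on the spread shared across genes. The 6 markers of leukocytes, endothelium and hepatocytes summed to 4.71 to 7.70 CPM in siCRP2 libraries and 9.87 to 22.1 CPM in siCTR libraries. PECAM1 (4.60 to 6.95 CPM and 9.64 to 21.5 CPM) made up most of that sum and was lower in siCRP2 libraries. The part of these markers in the results was not tested.

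Of the 32 members, 18 were lower in CRP2-depleted cells than in control cells and 2 were higher, by edgeR's quasi-likelihood test with the Benjamini-Hochberg adjusted p under 0.05 over all genes tested. Across all 23806 genes the shares were 11.5% lower and 12.5% higher, and across the 10828 genes that averaged 5 CPM or more they were 18.0% lower and 25.3% higher. The median log2 fold change of the members was -0.41, beside -0.02 for all genes tested and 0.08 for those of at least 5 CPM. With a fold of at least 1.5 required as well, 11 members were lower and 0 were higher, beside 7.80% and 4.58% of all genes tested. In 20 members all siCRP2 libraries lay below all siCTR libraries (18.0% of all genes tested), in 4 they lay above (19.4%), and in 8 the groups overlapped.

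The 19 synthesis enzymes together gave 1813, 1899 and 1892 CPM in siCRP2 libraries, against 2624, 2661 and 2994 CPM in siCTR libraries. The groups did not overlap, and the mean of the sums was 1868 ± 47.4 CPM in CRP2-depleted cells and 2760 ± 203 CPM in control cells (SD, n = 3 each), a ratio of 0.677. By section, the ratio was 0.736 for the mevalonate arm, 0.607 for squalene to lanosterol and 0.666 for lanosterol to cholesterol. Of these 19 enzymes 13 were lower, 1 was higher and 5 did not pass the test. Among the 6 genes of SREBP2 control 3 were lower and 0 were higher, and among the 7 of transport, esters, efflux and receptor turnover 2 were lower and 1 was higher.

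**Figure D1:**
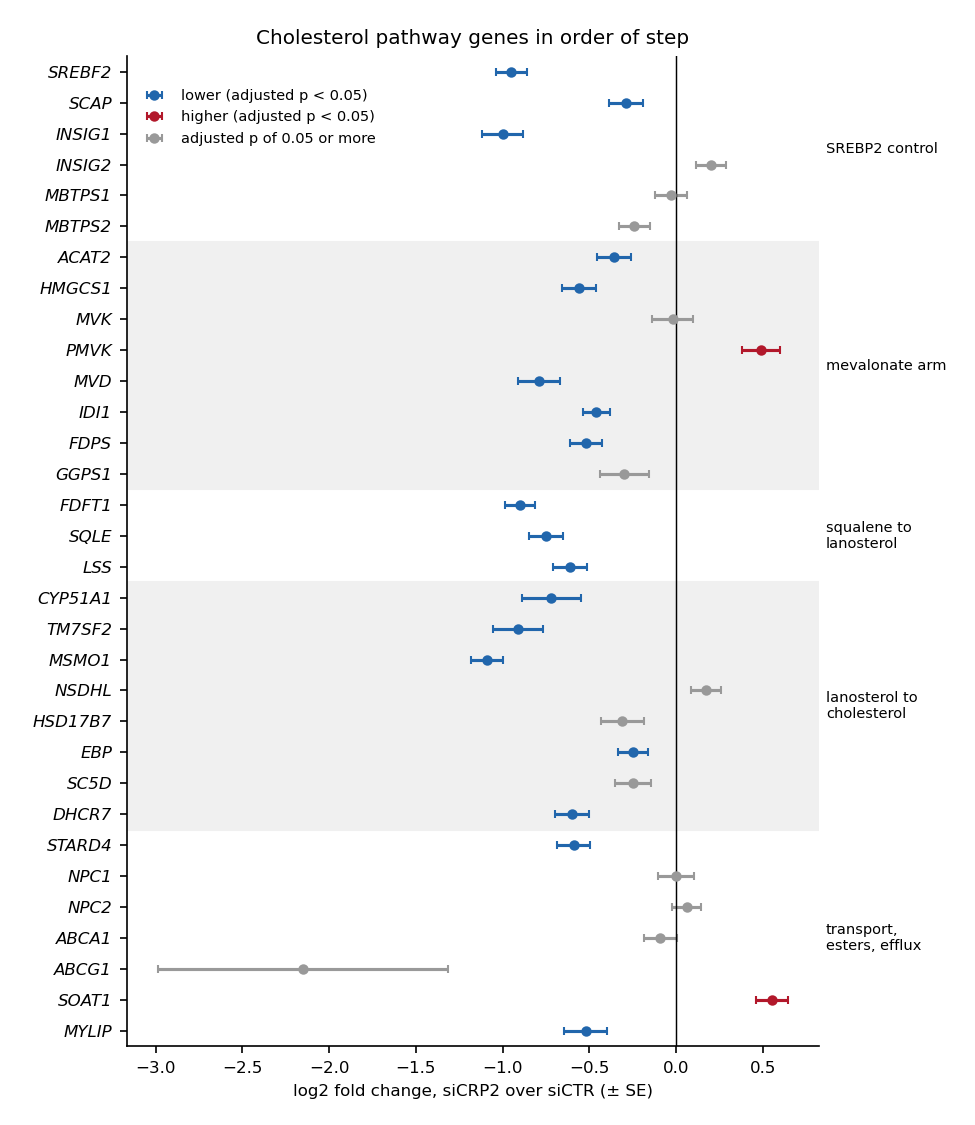
Log2 fold change of each member, siCRP2 over siCTR, from the top of the pathway to the bottom, with bars of 1 standard error. Blue marks the 18 genes that were lower, red the 2 that were higher and grey the 12 that did not pass at an adjusted p of 0.05. The 3 genes from squalene to lanosterol are all blue, and ABCG1 has the widest bar.

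Promoter sequences were looked up for the members, since SREBP2 acts at sterol regulatory elements beside sites of the factors NF-Y and Sp1. RefSeq promoters (GRCh38.p14, 250 bases before to 50 after the annotated start) matched 28 of the 32 members. The 4 short motifs below were searched on both strands: TCACNCCAC, the core of a classical sterol regulatory element, CACGTG, an E-box, CCAAT, the NF-Y box, and GGGCGG, a GC box. The promoters below are those of SREBF2 and INSIG1 (control genes that were lower), MSMO1 (the enzyme with the most negative fold change among the enzymes) and PMVK (an enzyme that was higher), with each match to TCACNCCAC and to CCAAT or its complement in capitals. In order they lie at chr22:41832855-41833154 on the plus strand, chr7:155297628-155297927 on the plus strand, chr4:165327419-165327718 on the plus strand and chr1:154936670-154936969 on the minus strand.
SREBF2: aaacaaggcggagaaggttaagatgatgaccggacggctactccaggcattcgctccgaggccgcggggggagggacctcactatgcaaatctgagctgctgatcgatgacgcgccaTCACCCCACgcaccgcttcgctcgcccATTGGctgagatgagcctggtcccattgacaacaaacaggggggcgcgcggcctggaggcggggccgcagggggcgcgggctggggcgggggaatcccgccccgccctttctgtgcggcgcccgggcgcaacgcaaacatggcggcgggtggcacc
INSIG1: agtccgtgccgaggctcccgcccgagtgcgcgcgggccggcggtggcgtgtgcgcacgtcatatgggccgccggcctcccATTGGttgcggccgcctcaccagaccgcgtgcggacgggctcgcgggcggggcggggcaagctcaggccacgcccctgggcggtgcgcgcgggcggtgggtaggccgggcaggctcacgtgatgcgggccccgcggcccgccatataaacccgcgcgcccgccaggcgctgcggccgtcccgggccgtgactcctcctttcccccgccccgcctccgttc
MSMO1: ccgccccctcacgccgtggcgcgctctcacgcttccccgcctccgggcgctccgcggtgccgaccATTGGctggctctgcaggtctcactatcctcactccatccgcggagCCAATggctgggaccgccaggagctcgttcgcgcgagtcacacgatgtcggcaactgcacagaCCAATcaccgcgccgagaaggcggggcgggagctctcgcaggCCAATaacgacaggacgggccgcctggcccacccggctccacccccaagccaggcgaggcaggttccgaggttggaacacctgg
PMVK: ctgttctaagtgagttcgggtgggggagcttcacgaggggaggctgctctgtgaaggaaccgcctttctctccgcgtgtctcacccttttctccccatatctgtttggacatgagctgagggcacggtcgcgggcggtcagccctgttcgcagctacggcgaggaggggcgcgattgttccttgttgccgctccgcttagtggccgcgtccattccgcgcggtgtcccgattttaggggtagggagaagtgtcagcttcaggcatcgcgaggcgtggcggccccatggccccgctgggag
The SREBF2 promoter carried the only match to TCACNCCAC among the 28 members, on the sense strand with its first base 133 bases before the start, and a CCAAT box on the other strand lay nearby. The MSMO1 promoter held 4 CCAAT boxes, the INSIG1 promoter 1 and the PMVK promoter none. No capitals of the 2 motifs overlap in these windows. The promoters shown were picked by fold change, so their boxes do not stand for the other members. The highest number, 5, was found in MVK and in NSDHL, and neither gene passed the test. SCAP, IDI1 and CYP51A1, which were lower, held 0, and SOAT1, which was higher, held 1.

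Over the matched members, CCAAT was present in 12 of the 15 that were lower, in 1 of the 2 that were higher and in 5 of the 11 that did not pass the test. The share for the 28 members was 64.3%, against 34.6% of all 35116 promoters and 34.4% of those of the genes tested. GGGCGG was present in 15 of 15 lower members, in 2 of 2 higher members and in 7 of the 11 that did not pass. Over all 28 it was in 24, against 45% of all promoters and 61.9% of those of genes tested. Of the 18 lower members, only these 15 had a matched promoter. CACGTG was found in 5 of 28 members (SCAP, INSIG1, LSS, SC5D and ABCA1), against 7.26% of all promoters and 8.85% of those of genes tested. It was in 3 of the 15 lower members, in 0 of the 2 higher and in 2 of the 11 that did not pass. TCACNCCAC was in 1 of 28, against 1.13% of all promoters and 1.11% of those of genes tested. These are descriptions of letters in a window. They carry no test and say nothing of binding.

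SREBF2 itself was lower (ENSG00000198911, GRCh38 chr22:41833105-41907306, plus strand). Its level was 138, 159 and 153 CPM in siCRP2 libraries, against 278, 281 and 312 CPM in siCTR libraries. All 3 siCRP2 libraries lay far below the lowest siCTR library. The mean was 150 ± 11 CPM in CRP2-depleted cells and 290 ± 19.0 CPM in control cells (SD, n = 3 each). The log2 fold change was -0.95 (SE 0.0884, edgeR adjusted p = 8.2e-07). Within the codes it was -1.01, -0.82 and -1.03.

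INSIG1, which keeps SREBP2 and SCAP in the endoplasmic reticulum when sterols are plentiful and is itself an SREBP target gene, stood at 237, 183 and 162 CPM in siCRP2 libraries, against 395, 385 and 384 CPM in siCTR libraries. The siCTR libraries were close together, while siCRP2 library a lay above the other two of its group. The log2 fold change was -1.0 (SE 0.120, edgeR adjusted p = 5.0e-05). The related INSIG2, which is not induced by SREBP2, gave 132, 132 and 123 CPM in siCRP2 libraries, against 102, 121 and 114 CPM in siCTR libraries. Its groups did not overlap, but with a log2 difference of 0.20 (95% interval 0.02 to 0.39) it did not pass the test (edgeR adjusted p = 0.11).

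The remaining control genes differed less. SCAP, the escort and sterol sensor, gave 57.9, 70.6 and 69.6 CPM in siCRP2 libraries, against 82.4, 75.0 and 84.5 CPM in siCTR libraries. The groups lay apart by a narrow margin, the log2 fold change was -0.29 (SE 0.0963, edgeR adjusted p = 0.038), and the call was lost when any 1 library was left out. MBTPS1, the site-1 protease, stood at 165, 193 and 179 CPM in siCRP2 libraries and at 171, 201 and 177 CPM in siCTR libraries. Its groups overlapped, with a log2 difference of -0.03 (95% interval -0.22 to 0.16). MBTPS2, the site-2 protease, stood at 57.9, 63.0 and 57.8 CPM in siCRP2 libraries, against 71.4, 75.2 and 64.8 CPM in siCTR libraries. Its log2 difference of -0.24 (SE 0.0910) did not pass (edgeR adjusted p = 0.065), although the groups did not overlap.

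In the mevalonate arm, 5 of 8 genes were lower. HMGCS1, the synthase that makes HMG-CoA, gave 179, 156 and 160 CPM in siCRP2 libraries, against 281, 223 and 225 CPM in siCTR libraries. Each siCRP2 library was below each siCTR library, and the log2 fold change was -0.56 (SE 0.0995, edgeR adjusted p = 4.9e-04). ACAT2, the cytosolic acetoacetyl-CoA thiolase, gave 102, 106 and 115 CPM in siCRP2 libraries, against 134, 123 and 159 CPM in siCTR libraries (-0.36, SE 0.0982, edgeR adjusted p = 0.012). That call was lost without siCRP2 library a (edgeR adjusted p = 0.054), siCRP2 library b (0.057) or siCTR library c (0.060).

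The 2 kinases of the arm were not among the lower genes. PMVK, phosphomevalonate kinase, stood at 34.2, 32.7 and 29.9 CPM in siCRP2 libraries, against 24.6, 21.6 and 22.6 CPM in siCTR libraries. Every siCRP2 library was above every siCTR library, and the log2 fold change of 0.49 (SE 0.110, edgeR adjusted p = 0.0033) was the only rise among the 19 enzymes in this fit. MVK, mevalonate kinase, gave 51.5, 40.6 and 39.3 CPM in siCRP2 libraries and 49.8, 41.8 and 41.8 CPM in siCTR libraries. Its groups overlapped, with a log2 difference of -0.02 (95% interval -0.27 to 0.22).

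MVD, the mevalonate diphosphate decarboxylase that follows them, had 21.0, 19.5 and 23.1 CPM in siCRP2 libraries, against 35.6, 31.9 and 42.4 CPM in siCTR libraries. The groups were well separated, and the log2 fold change was -0.79 (SE 0.123, edgeR adjusted p = 1.5e-04), the most negative of the arm. IDI1, the isopentenyl diphosphate isomerase, gave 154, 153 and 153 CPM in siCRP2 libraries, against 207, 217 and 207 CPM in siCTR libraries. The siCRP2 libraries of IDI1 agreed closely with each other, and its log2 fold change was -0.46 (SE 0.0786, edgeR adjusted p = 3.8e-04). FDPS, farnesyl diphosphate synthase, gave 217, 239 and 243 CPM in siCRP2 libraries, against 312, 319 and 370 CPM in siCTR libraries (-0.52, SE 0.0909, edgeR adjusted p = 4.3e-04). GGPS1, which makes geranylgeranyl diphosphate for prenylation, is a branch off the sterol route. Its 12.8, 15.1 and 14.0 CPM in siCRP2 libraries and 15.2, 20.7 and 15.8 CPM in siCTR libraries lay apart by a small gap and did not pass (log2 difference -0.30, SE 0.141, edgeR adjusted p = 0.14).

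The 3 genes that commit farnesyl diphosphate to sterols were all lower. FDFT1, squalene synthase, had 134, 147 and 138 CPM in siCRP2 libraries, against 239, 264 and 278 CPM in siCTR libraries. No siCRP2 library came near the siCTR range, and the log2 fold change was -0.90 (SE 0.0864, edgeR adjusted p = 1.2e-06). SQLE, squalene epoxidase, an oxygen-dependent and rate-limiting step, had 40.9, 41.2 and 41.9 CPM in siCRP2 libraries, against 63.9, 66.7 and 77.6 CPM in siCTR libraries. Its siCRP2 libraries were almost equal, and the log2 fold change was -0.75 (SE 0.0970, edgeR adjusted p = 2.6e-05). LSS, lanosterol synthase, had 242, 271 and 273 CPM in siCRP2 libraries, against 365, 373 and 460 CPM in siCTR libraries, with siCTR library c above the rest. Its log2 fold change was -0.61 (SE 0.0987, edgeR adjusted p = 2.1e-04).

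From lanosterol to cholesterol, 5 of 8 genes were lower. MSMO1, the methylsterol monooxygenase that starts the removal of the methyl groups at carbon 4 (GRCh38 chr4:165327667-165343164, plus strand), had 167, 186 and 167 CPM in siCRP2 libraries, against 329, 373 and 402 CPM in siCTR libraries. The lowest siCTR library was well above the highest siCRP2 library, and the log2 fold change of -1.09 (SE 0.0930, edgeR adjusted p = 3.3e-07) was the most negative of the 19 enzymes. It was -0.98, -1.01 and -1.27 within the codes.

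DHCR7, the 7-dehydrocholesterol reductase of the final steps, had 162, 174 and 172 CPM in siCRP2 libraries, against 242, 230 and 297 CPM in siCTR libraries. The groups did not overlap, and the log2 fold change was -0.60 (SE 0.0973, edgeR adjusted p = 2.2e-04). TM7SF2, a sterol C14-reductase, had 7.56, 8.40 and 8.55 CPM in siCRP2 libraries, against 13.1, 16.6 and 16.7 CPM in siCTR libraries (-0.91, SE 0.145, edgeR adjusted p = 1.7e-04). CYP51A1, the lanosterol demethylase, had 7.09, 6.71 and 6.91 CPM in siCRP2 libraries, against 9.08, 10.8 and 14.2 CPM in siCTR libraries (-0.72, SE 0.171, edgeR adjusted p = 0.0050). Both were low in the table and both were clearly separated between groups. For CYP51A1, 68.2% of the exon bases are shared on the same strand with another annotated gene, ENSG00000285772, and 67.8% with ENSG00000289027. Neither of these is used here, and the level of CYP51A1 is uncertain.

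EBP, the sterol isomerase, had 109, 113 and 115 CPM in siCRP2 libraries, against 125, 127 and 148 CPM in siCTR libraries. Its log2 fold change of -0.25 (SE 0.0874, edgeR adjusted p = 0.049) lay just inside the threshold, and the call was lost in 5 of 6 fits that left out 1 library. The other enzymes of this section did not pass. HSD17B7, a ketoreductase, had a log2 difference of -0.31 (SE 0.123, edgeR adjusted p = 0.075), and SC5D, the C5-desaturase, one of -0.25 (SE 0.105, edgeR adjusted p = 0.097). NSDHL, the dehydrogenase that works with MSMO1 on the same methyl groups, stood at 74.3, 73.6 and 76.5 CPM in siCRP2 libraries and at 64.3, 63.9 and 72.0 CPM in siCTR libraries. Its groups did not overlap, and siCRP2 was the higher of the pair, but the log2 difference of 0.17 (95% interval -0.02 to 0.35) did not pass the test (edgeR adjusted p = 0.19).

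Among the genes of transport, storage and efflux, the pattern was mixed. STARD4, a sterol carrier induced by SREBP2, had 103, 84 and 86.4 CPM in siCRP2 libraries, against 127, 140 and 145 CPM in siCTR libraries. Every siCRP2 library was below every siCTR library, and the log2 fold change was -0.59 (SE 0.0952, edgeR adjusted p = 1.9e-04). SOAT1, the acyltransferase that esterifies cholesterol for storage, had 216, 244 and 267 CPM in siCRP2 libraries, against 160, 160 and 176 CPM in siCTR libraries. It was higher in each siCRP2 library than in each siCTR library (log2 fold change 0.55, SE 0.0922, edgeR adjusted p = 2.9e-04). MYLIP, a ubiquitin ligase induced by LXR that marks lipoprotein receptors for degradation, had 17.7, 16.9 and 15.4 CPM in siCRP2 libraries, against 20.9, 25.9 and 24.9 CPM in siCTR libraries (-0.52, SE 0.124, edgeR adjusted p = 0.0050).

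NPC1 and NPC2, which move cholesterol out of late endosomes and lysosomes, had overlapping groups. NPC1 stood at 219, 261 and 271 CPM in siCRP2 libraries and at 218, 255 and 275 CPM in siCTR libraries, and the 95% interval of its log2 difference was -0.21 to 0.22. That of NPC2 was -0.11 to 0.24 and that of ABCA1, the pump that loads cholesterol onto apolipoprotein, -0.29 to 0.11. ABCG1, which exports cholesterol to lipoprotein particles, had 1.27, 3.14 and 2.92 CPM in siCRP2 libraries, against 2.84, 12.2 and 18.4 CPM in siCTR libraries. Its groups overlapped because siCTR library a stood far below the other two. The log2 difference of -2.15 (SE 0.835, 95% interval -4.41 to 0.11) did not pass (edgeR adjusted p = 0.16). Without siCTR library a it was -2.61 (edgeR adjusted p = 2.9e-04), and with the code as a block it was -2.18 (edgeR adjusted p = 9.9e-45). The fit with the block has few residual degrees of freedom. Its very small p-value rests on the spread shared across genes and does not measure the spread of ABCG1 itself, whose log2 ratios within the codes were -1.16, -1.96 and -2.66.

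Differences within the codes were compared because libraries that share a code deviated together. In 23 members the siCRP2 library was below the siCTR library in all 3 codes, and in 5 it was above in all 3. The share of all genes tested that did so was not counted, so these counts only describe the members. With the code as a block, 23 members were lower and 4 were higher, beside 17.8% and 19.5% of all genes tested. The members that passed in this fit and not in the fit without a block were INSIG2 (edgeR adjusted p = 0.0051), MBTPS2 (0.0021), GGPS1 (0.011), NSDHL (0.042), HSD17B7 (0.0013), SC5D (4.8e-04) and ABCG1. Of these INSIG2 and NSDHL were higher and the other 5 were lower. MBTPS2, HSD17B7, SC5D and ABCG1 also passed under other alternatives, among them the fits without siCTR library c for MBTPS2 (edgeR adjusted p = 0.028) and without siCTR library a for HSD17B7 (0.013) and SC5D (0.015).

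**Figure D2:**
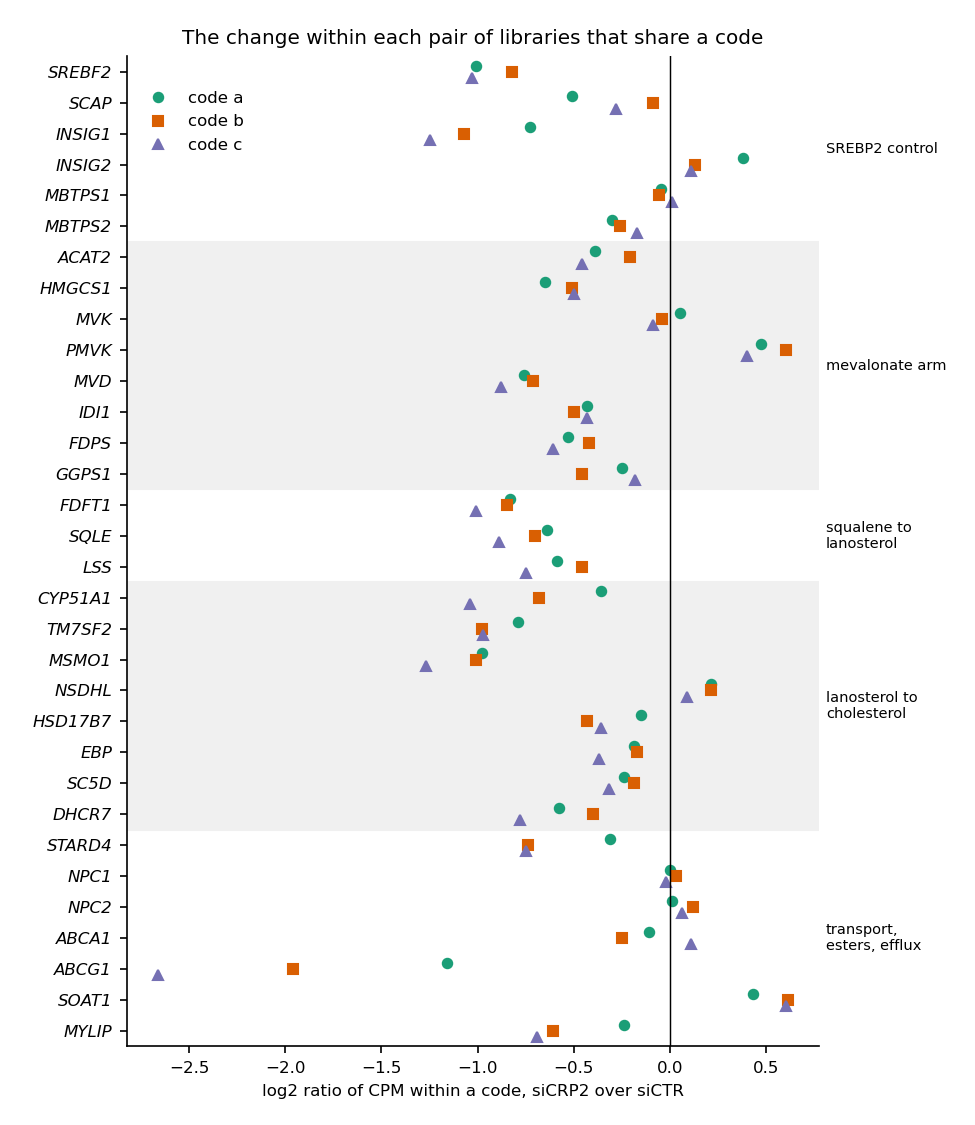
Log2 ratio of CPM, siCRP2 over siCTR, for the 3 pairs of libraries that share a code, with members in pathway order; green circles are code a, orange squares code b and purple triangles code c. The 3 symbols of most synthesis enzymes lie left of 0, PMVK and SOAT1 lie right of 0 in all 3 codes, and ABCG1 spreads from -2.66 to -1.16.

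Levels between genes were compared only per kilobase of merged exon length, which takes in the exons of all annotated transcripts. It exceeded the length of the canonical transcript unevenly: 3718 against 1417 bases for FDPS, 2584 against 821 for NPC2 and 2852 against 2227 for MSMO1. The order below belongs to merged length and was not checked with another length. On this scale MSMO1 stood at 60.7 CPM per kb in siCRP2 libraries and at 129 in siCTR libraries, where it ranked highest, and was followed in the siCTR order by INSIG1 (53.2 and 106), FDPS (62.6 and 89.7) and EBP (63.5 and 75.3). In CRP2-depleted cells NPC2 (64.4 CPM per kb, against 61.6 in control cells), EBP, FDPS and MSMO1 had ranges over the 3 libraries that overlapped, between 58.3 and 66.3 CPM per kb. The wider range of INSIG1 there, 44.3 to 65 CPM per kb, overlapped these ranges as well. In control cells the ranges of MSMO1 (115 to 141), INSIG1 (105 to 108), FDPS (83.9 to 99.4), EBP (70.5 to 83.5) and NPC2 (59.4 to 65.8) did not overlap. ABCG1 was lowest in both groups, at 0.399 CPM per kb in siCRP2 libraries and 1.82 in siCTR libraries.

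**Figure D3:**
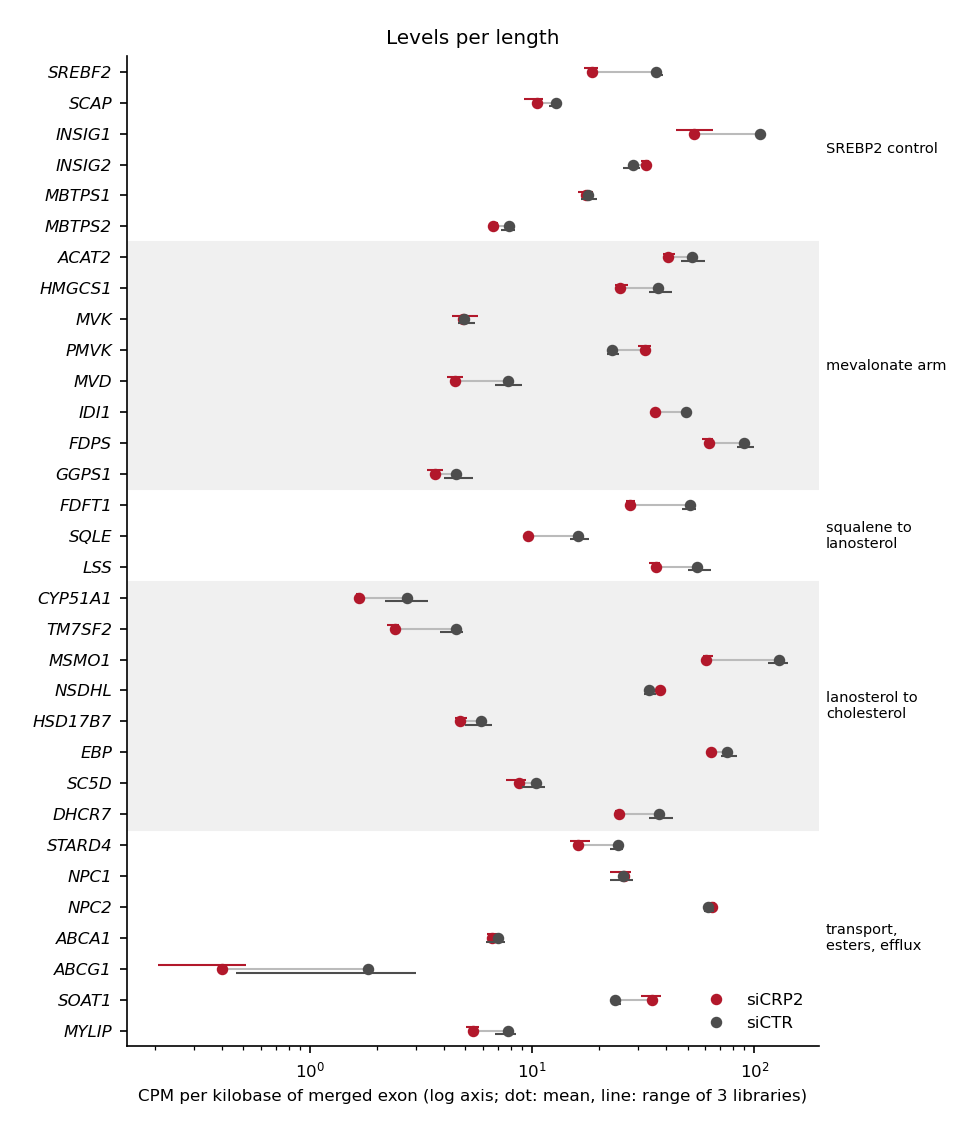
Level of each member in CPM per kb of merged exon length on a log axis, in pathway order, with siCRP2 means in red, siCTR means in grey and thin lines for the range of 3 libraries. Means run from 0.399 (ABCG1) to 64.4 (NPC2) in siCRP2 libraries and from 1.82 (ABCG1) to 129 (MSMO1) in siCTR libraries.

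Where overlapping genes share exon bases, the count of a member is uncertain. Whether the deposited counting separated strands is not known from the sources used here. The 16 members with no exon bases in common with another gene held 7 that were lower and 2 that were higher (median log2 fold change -0.30), and the 16 that share exon bases held 11 lower and 0 higher (-0.49). Of all genes tested, 11.5% were lower and 12.5% higher, and of those that averaged 5 CPM or more 18.0% and 25.3%. The difference between the 2 sets of members was not tested. The largest shares after CYP51A1 were those of HMGCS1, 37.7% with the antisense lncRNA ENSG00000261604, GGPS1, 37.3% with ENSG00000285053 on the same strand, and EBP, 36.4% with ENSG00000286268 on the same strand.

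Genes around the pathway were counted in 6 lists, of whose 86 genes 85 were tested. Of these 21 were lower and 17 were higher. Among all genes tested the shares were 11.5% lower and 12.5% higher, and among those that averaged 5 CPM or more 18.0% and 25.3%. The lists were not filtered by level, and some of their genes averaged under 5 CPM. Sterol synthesis and acetyl-CoA supply beyond the members had 3 of 8 lower and 1 higher. SREBF1, the sister gene of SREBF2, averaged 110 ± 6.27 CPM in siCRP2 libraries and 185 ± 8.47 CPM in siCTR libraries (SD, n = 3 each; log2 fold change -0.76, edgeR adjusted p = 4.9e-06). ACSS2, which makes acetyl-CoA from acetate, had a log2 fold change of -0.73, ACLY, ATP citrate lyase, one of -0.40 and FAXDC2 one of 0.46 (edgeR adjusted p = 0.041). FAXDC2 was the only higher call of this list, which had 0 higher by edgeR's exact test, by limma-voom and after thinning. Of 15 accessory and degradation factors of SREBP control 3 were lower, among them PGRMC1 (-0.79), TMEM97 (-0.90) and RNF145 (-0.58), and 4 were higher, among them AUP1 (0.44). The 15 tested genes of LXR, oxysterol and efflux had 6 lower and 1 higher, with HSD3B7, a bile acid synthesis enzyme, at -0.99, LPCAT3 at -0.68, CYP39A1, an oxysterol hydroxylase, at -1.61 and SULT2B1, a sterol sulfotransferase with 8 counts in all siCRP2 libraries and 29 in all siCTR libraries, at -2.13.

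The remaining lists held both lower and higher genes. Their counts stand beside 11.5% lower and 12.5% higher among all genes tested. Among genes that averaged 5 CPM or more the shares were 18.0% and 25.3%. No list was tested as a set. Lipoprotein uptake and endocytic release had 3 of 13 lower and 3 higher, with STARD3NL (-2.07), LRP8 (-0.95) and LIPA, the lysosomal lipase, (-0.58) lower and VLDLR, a lipoprotein receptor, (0.77) higher. Sterol transfer at membrane contacts had 2 of 17 lower and 4 higher, with OSBPL10 at -0.49, OSBPL3 at 0.52, VAPB at 0.37 and OSBPL6 at 1.38. Isoprenoid use and prenylation had 4 of 17 lower and 4 higher, with CHM (-0.87) and FNTB, the beta subunit of farnesyltransferase, (-1.03) lower and COQ2 (0.51) and NUS1 (0.38) higher. The median log2 fold changes of these lists were 0.06, 0.18 and 0.05, beside -0.02 for all genes tested and 0.08 for those of at least 5 CPM. For the lists described before, the medians were -0.27 for sterol synthesis and acetyl-CoA supply and 0.12 for accessory and degradation factors. The first of these takes in a gene with 0 counts in all siCRP2 libraries and 3 in all siCTR libraries. The median for LXR, oxysterol and efflux was -0.56. That list holds genes near the floor, among them CYP39A1 (means of 1.13 CPM in siCRP2 libraries and 3.41 in siCTR libraries) and SULT2B1 (0.0916 and 0.457). No list median was taken over genes of at least 5 CPM alone, so -0.56 does not describe the well-expressed genes of that list.

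A short sequence was checked in the transcripts. The heptamer GCCTCAC, picked earlier with these same fold changes known, and so no support for any reading of them, was present in the canonical transcript of 23.9% of 14855 protein-coding genes tested, of 46.5% of those that were lower and of 11.9% of those that were higher. Among the members it was in 3 of 32, SREBF2, MBTPS2 and ABCG1, and in 1 of the 18 that were lower. The sites are shown with 10 bases on each side and the heptamer in capitals. They lie in coding sequence at chr22:41900376-41900382 (exon 16), chrX:21878087-21878093 (exon 8) and chr21:42288254-42288260 (exon 10), all on the plus strand of GRCh38.
SREBF2: agccatgcatGCCTCACtccctgggaa
MBTPS2: aacaatcacaGCCTCACagatgtgtgc
ABCG1: tctgccagctGCCTCACgcagttctgc
Its part in the level of SREBF2 was not tested, and the other 17 lower members did not carry it in these transcripts.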

How the data were processed

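Libraries were grouped by GEO's labels, and columns by the group in their names. Raw counts per gene were deposited by the authors, who mapped the read pairs with STAR (genome GRCh38); the labels name a standard mRNA kit and the study's methods a stranded one. The strand setting of the counting is not given in the sources used here. Symbols came from GENCODE 44, which held 57754 of 58395 genes. A gene was tested if 2 or more of the 3 libraries in either group had a count. The test was edgeR 4.0.16 in R 4.3.3, robust quasi-likelihood on TMM-scaled counts without a block, with Benjamini-Hochberg adjustment over all genes tested. Each standard error was taken from the fold change with its F value. Alternatives were DESeq2 1.42.0, edgeR's exact test, limma-voom (limma 3.58.1), other scalings and filters, thinning, a replicate block and leaving out each library. The steps were tested on simulated data.

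Members, lists and pathway steps were chosen with earlier results of these data known. All 32 members, CSRP2 and some markers are named (1 marker is not reported here), and from each list at most 4 genes with the smallest p among those that passed. Deviations from the group means over 10828 genes correlated by 0.723, 0.459 and 0.744 between libraries that share a code, and by -0.674 to 0.114 otherwise. The codes were therefore taken to pair the libraries. Deviations cancel within each group, so the values between different codes are not independent of those within a code. The codes could not be matched to GEO's replicate numbers. Libraries within a group varied beyond counting noise (chi-square over its degrees of freedom 12.4 to 48.3). One count is worth 0.0256 to 0.0577 CPM.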

Additional observations from a re-analysis of the deposited data

How the results depend on the processing

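Of the 20 members called, 17 kept their call and direction under each of the 15 alternatives. The exceptions were ACAT2, SCAP and EBP, the last with an adjusted p of 0.095 by edgeR's exact test, 0.069 by limma-voom and 0.063 with library totals only, and SCAP with 0.069 by the exact test and 0.062 by limma-voom. Lower members numbered 16 to 21 under the tools, scalings, filters and thinning, and 15 to 20 when a library was left out. With a fold of at least 1.5, 8 to 13 were lower and 0 to 1 higher when a library was left out. With the replicate block, higher members numbered 4 in place of 2, and called genes of the surrounding lists 59 in place of 38. Leaving out a library gave 27 to 39 for the lists. The fit with the block has few residual degrees of freedom, and its very small p-values rest on the spread shared across genes. The members that changed sign were not called: NPC1 was -0.01 with DESeq2 and with RLE size factors, -0.04 with filterByExpr, -0.02 without a filter and -0.02 after thinning, and -0.08 to 0.08 when a library was left out. MBTPS1 ran from -0.12 to 0.04 and MVK from -0.16 to 0.07 in the same fits. ABCG1 ran from -2.61 to -1.56. The cause of these moves was not tested. Among the members the low levels of ABCG1, CYP51A1 and TM7SF2 rest on the fewest reads.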
